A study of Homo sapiens with 18 samples.

Results

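Transcripts that changed when CAMA-1 cells were given palbociclib were examined across all genes of 6 libraries, 3 treated with the drug and 3 with its solvent DMSO, out of 18 libraries in the series. The groups were chosen by their labels alone, and 11053 genes had enough counts to be tested. CAMA-1 is an established oestrogen receptor-positive breast cancer line, used here as the parental, wild-type cells in RPMI-1640 medium with serum. Palbociclib inhibits CDK4 and CDK6 and was given at 500 nM for 5 days. The remaining libraries are 3 of CAMA-1 with abemaciclib, another CDK4/6 inhibitor, at 500 nM for 5 days, and 9 of ZR-75-1, a second oestrogen receptor-positive line, with the same 3 treatments. They enter only where the response to palbociclib is compared with that to abemaciclib or with that of ZR-75-1. The methods of the study give the 3 libraries of a group as independent biological replicates, all of them cultures of the 1 line.

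CDK4 and CDK6, paired with D-type cyclins, phosphorylate the retinoblastoma protein Rb. Unphosphorylated Rb holds E2F transcription factors in check, so inhibition of these kinases arrests cells in G1 and lowers the transcripts needed for DNA replication and division. Cells that stop dividing while they go on making RNA and protein can grow large and take on features of senescence, among them lysosomal expansion, a changed cytoskeleton and secreted factors. The account that follows leaves the E2F targets and the oestrogen response genes to a few sentences of context and describes the other pathways and gene families.

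The libraries were of similar depth, with 2726445 to 3943342 counts with DMSO and 2920518 to 4146549 with palbociclib, and 3 counts stood for 0.723 to 1.10 CPM, the count scaled to a common library size. Replicates of these 2 groups had Pearson's r of 0.975 to 0.979 between their log CPM values (across genes, which are not independent), and the counts of each pair differed by more than sampling noise (chi-square per degree of freedom 1.84 to 3.66). Luminal markers had many counts in every library (EPCAM 588 to 824, GATA3 4407 to 8050), whereas the fibroblast genes COL1A2, PDGFRB and DCN, the T cell gene CD3E and the basal keratin KRT5 had 0 counts throughout. PTPRC, PECAM1, VWF, KRT14 and TP63 had 0 to 3 counts, LYZ 1 to 6, and COL1A1, another fibroblast gene, 38 to 67. Mitochondrially encoded genes took 15.7% ± 0.87 of the counts with DMSO and 23.6% ± 1.15 with palbociclib (SD, n = 3 each). The ranges did not overlap (p = 0.1 by a two-sided exact permutation test, the smallest value that 3 against 3 libraries allow).

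Palbociclib was followed by changes in a large part of the transcriptome. Of the tested genes, 2030 (18.4%) were called higher and 2072 (18.7%) lower by edgeR's quasi-likelihood test with Benjamini-Hochberg adjustment, at a threshold of 0.05, and the median log2 fold change over all tested genes was 0.00. A change of at least 2-fold was reached by 577 of the higher and 498 of the lower genes. The libraries of the groups did not overlap for 5087 genes (46%). These percentages are the background for every count of list members called between palbociclib and DMSO in CAMA-1. The lists were written by hand for this description with earlier results of these data known, so their shares describe the data and test nothing. A member is counted only where it was tested. Levels are CPM after TMM scaling, and a value in parentheses after a gene is its log2 fold change, palbociclib over DMSO, unless said otherwise.

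The drug's known effect on proliferation was present. MKI67, a marker of dividing cells, had 406, 409.6 and 475 CPM with DMSO and 83.8, 79.9 and 80.4 CPM with palbociclib (log2 fold change −2.40, SE 0.09, adjusted p = 2.2e-24). Of 221 tested genes of the cell cycle and DNA replication, 208 were called lower and 0 higher, with a median of −1.41, and of 167 tested genes of the oestrogen response, 102 were called higher and 13 lower. RB1, which encodes Rb, had a log2 fold change of −0.08 (SE 0.13) that did not pass the threshold (adjusted p = 0.67). CDK4 was lower (log2 fold change −0.44, SE 0.10, adjusted p = 3.7e-04). CDK6 had 3, 3 and 2 counts with DMSO and 10, 6 and 6 with palbociclib, too few to be tested.

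**Figure D1:**
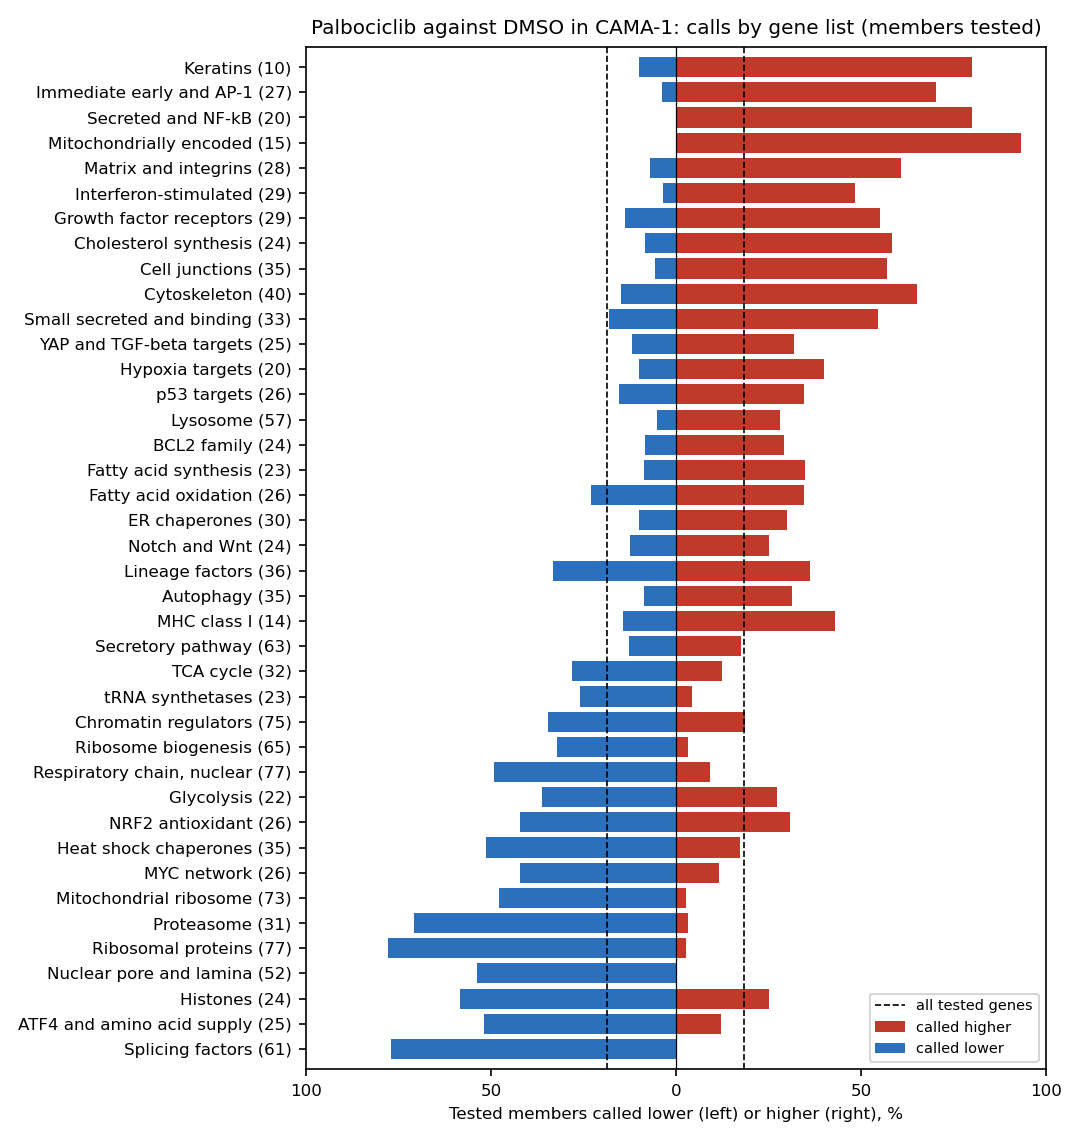
Share of tested members of 40 gene lists called higher (right, red) or lower (left, blue) with palbociclib against DMSO in CAMA-1, in percent, with the number of members tested in parentheses and lists ordered by their median log2 fold change. Dashed lines mark the shares over all tested genes, 18.7% lower and 18.4% higher; splicing factors and ribosomal proteins stand far to the left and the mitochondrially encoded genes and keratins far to the right.

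Among called genes outside the cell cycle and oestrogen response lists that had a mean of at least 10 counts and groups that did not overlap, the largest fitted rise was in GDF15 (ENSG00000130513.6, chromosome 19, 18374731 to 18389176, GRCh38, GENCODE v44), which encodes a secreted cytokine of the TGF-β superfamily that is induced by cellular stress. It had 4.65, 6.65 and 9.26 CPM with DMSO and 175, 179.5 and 172 CPM with palbociclib (log2 fold change 4.62, SE 0.15, adjusted p = 4.0e-26). The treated libraries differed little from each other and stood far above all controls, though the limits above required that the groups not overlap. The hair keratin genes KRT81 and KRT32 were among the next: KRT81 went from 2.85 ± 0.867 to 51.0 ± 6.79 CPM (SD, n = 3; log2 fold change 4.18), and KRT32, with 1 to 4 counts per DMSO library, from 0.655 ± 0.300 to 13.4 ± 1.05 CPM (4.20). KRT81 has close relatives in the same gene cluster, so reads may have been divided among them. TUBA1A, an α-tubulin gene that also has near-identical relatives, rose by 3.72 (SE 0.22) on the log2 scale.

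The other large rises involved genes near the counting floor with DMSO. The cyclic nucleotide-gated channel gene CNGA1 had 2, 1 and 1 counts with DMSO and 35, 31 and 25 counts with palbociclib and was at least 9.49-fold higher, taking 3 counts per DMSO library as the floor. On the same basis AOX1, which encodes aldehyde oxidase, was at least 7.73-fold higher and RFTN1, which encodes a lipid raft protein, at least 7.19-fold. ANKRD22 (3.96), the zinc finger gene ZNF462 (3.58) and the non-coding RNA gene LINC02984 (3.61) rose from means of 1.02 to 1.42 CPM. Treated libraries stood above all controls for each of these genes, which the limits above required.

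Among the falls under the same limits, the retinol dehydrogenase gene RDH16 had 37, 21 and 41 counts with DMSO and 2, 0 and 2 counts with palbociclib and was at least 11.1-fold lower, and NMU, which encodes the neuropeptide neuromedin U, was at least 9.62-fold lower. STC1, a secreted glycoprotein gene often induced by hypoxia, had 55.8, 54.3 and 58.9 CPM with DMSO and 5.13, 5.21 and 8.67 CPM with palbociclib (log2 fold change −3.19, SE 0.20, adjusted p = 5.6e-17). The drop was seen in all 3 treated libraries, which the limits required. H4C3, a replication-dependent histone gene, fell from 728 ± 123 to 110.2 ± 16.9 CPM (−2.73), and NRM, which encodes the nuclear envelope protein nurim, from 50.9 ± 2.08 to 7.09 ± 3.75 CPM (−2.78). CBLN2 (−3.09), the glycosyltransferase gene GALNT14 (−2.82), the carbonic anhydrase-related gene CA8 (−2.80), the kinase gene PIM1 (−2.73) and NRGN (−2.61) completed the 10 largest falls within these limits. Each of these 5 had a mean of 5.69 to 17.3 CPM with DMSO.

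**Figure D2:**
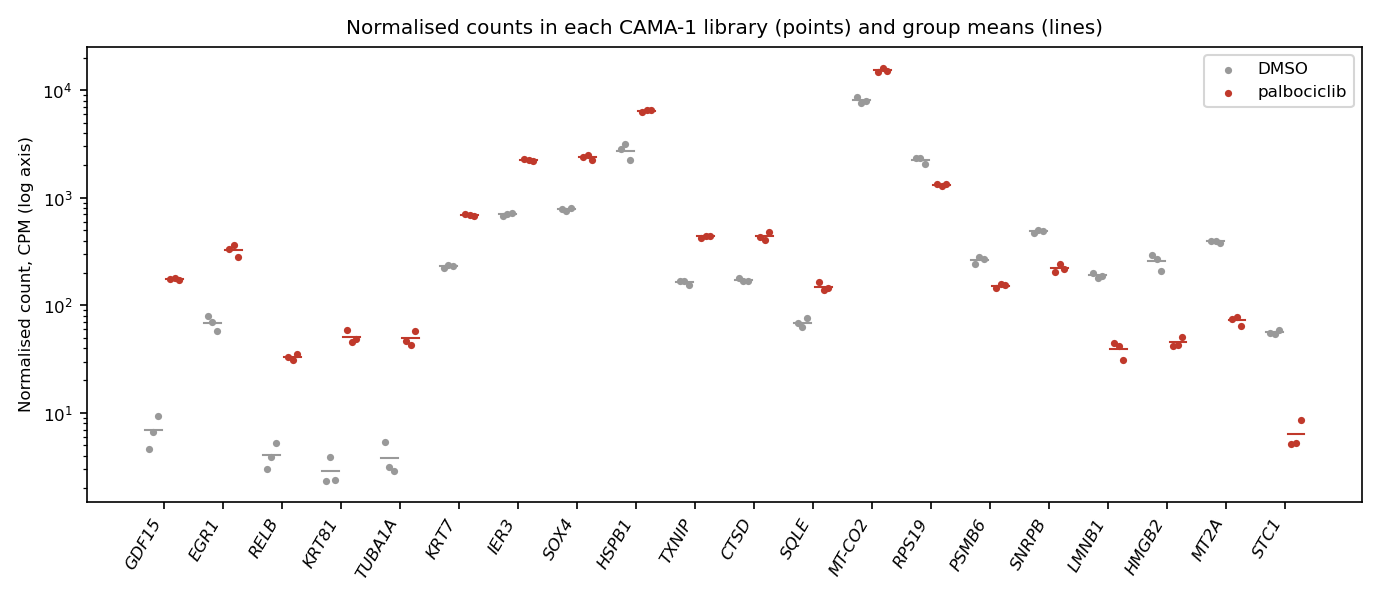
Normalised counts (CPM, log axis) of 20 genes in each CAMA-1 library, with grey points for the 3 DMSO libraries, red points for the 3 palbociclib libraries and a short line at each group mean. The groups do not overlap for any gene shown, and the genes were picked from those named for a large change or a small p. GDF15, EGR1, RELB, KRT81 and TUBA1A rise from low levels, and LMNB1, HMGB2, MT2A and STC1 fall.

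Genes of nuclear RNA handling fell together. Splicing factors, the proteins and small ribonucleoproteins that remove introns, had 61 tested members, of which 0 were called higher and 47 lower, with a median log2 fold change of −0.50. This held for each class: 10 of 12 SR proteins, 15 of 19 hnRNP genes and 22 of 30 genes of the small nuclear ribonucleoproteins were called lower. HNRNPA2B1, which packages nascent RNA, had 783, 829 and 825 CPM with DMSO and 354, 333 and 383 CPM with palbociclib (log2 fold change −1.19, SE 0.07, adjusted p = 1.0e-18). HNRNPH1 fell by 1.34 (SE 0.08) on the log2 scale and SNRPB, a core protein of the spliceosomal particles, fell by 1.14 (SE 0.08). For all 3 genes the treated libraries lay below every control library, which their choice by smallest p made likely. Groups did not overlap for 46% of all tested genes.

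The nuclear envelope and transport genes followed the same direction. Of 52 tested genes of the nuclear pore, the lamina and nuclear transport, 0 were called higher and 28 lower (median −0.40), including 13 of 26 pore genes, 8 of 12 lamina genes and 7 of 14 transport genes. LMNB1, which encodes lamin B1 of the inner nuclear membrane and is known to be lost in senescent cells, had 202, 180.3 and 186 CPM with DMSO and 44.5, 42.3 and 31.2 CPM with palbociclib (log2 fold change −2.25, SE 0.11, adjusted p = 2.9e-20). The lamina-associated gene TMPO fell from 233 ± 4.01 to 68.6 ± 6.86 CPM (−1.76), and RANBP1, a cofactor of the Ran transport cycle, from 245 ± 12.7 to 122 ± 7.25 CPM (−1.01). These 3 genes are also among the 5 members that the list shares with the cell cycle genes.

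Chromatin genes split by family. Of 75 tested chromatin regulators, 14 were called higher and 26 lower. All 8 lysine demethylase genes that passed the threshold, of 14 tested, were higher, whereas 8 of 9 high-mobility group genes and 8 of 15 Polycomb genes were lower and 0 members of either family were higher. HMGB2, which bends DNA, had 295, 267 and 209 CPM with DMSO and 42.3, 42.8 and 50.3 CPM with palbociclib (log2 fold change −2.51, SE 0.11, adjusted p = 2.8e-22). The Polycomb methyltransferase gene EZH2 fell from 189.7 ± 13.7 to 73.4 ± 10.1 CPM (−1.36), and DNMT1, the maintenance DNA methyltransferase, from 342 ± 19.0 to 182 ± 17.8 CPM (−0.91). HMGB2, EZH2 and DNMT1 are also cell cycle genes. KDM5B, which removes methyl groups from histone H3 lysine 4, rose from 74.2 ± 7.12 to 141 ± 5.75 CPM (a log2 difference of 0.92 with SE 0.09 and adjusted p = 8.6e-11).

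Histone genes were measured only in part, because replication-dependent histone transcripts lack a poly(A) tail and the assay is primed on such tails; 24 of 66 listed genes were tested. Of these, 6 were called higher and 14 lower. The linker histone genes (4 of 4 tested lower) and the replication-independent variants (7 of 8 lower) fell, with H2AZ2 at −1.19 and H1-10 at −1.95. The H2B genes went the other way, with 4 of 6 higher and 0 lower. H2AC6, an H2A gene, rose from 47.4 ± 1.59 to 87.3 ± 9.12 CPM (0.88).

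The MYC network controls growth genes through dimers of MYC with MAX, opposed by MXD proteins. Of its 26 tested genes, 3 were called higher and 11 lower, and the fall lay in the target genes, 9 of 16 of which were lower and 0 higher. Without palbociclib replicate 2 the number of lower genes was 7. The antagonist MXD3, a gene tied to S phase, fell from 26.7 ± 2.41 to 3.76 ± 0.319 CPM (−2.82) while its relative MXD4 rose from 59.4 ± 0.904 to 107 ± 6.94 CPM (0.85), and ODC1, which encodes a polyamine synthesis enzyme, fell by 1.01 (SE 0.14). MYC and MXD proteins bind the E-box CACGTG. This sequence, which reads the same on both strands, occurred in the promoters (250 bases before to 50 after the RefSeq start, GRCh38.p14) of 12 of 29 network genes and 21 of 56 ribosome biogenesis genes with a promoter, against 7.44% of all 27305 promoters. Windows from the promoters of MXD4, which rose, and of LDHA and the biogenesis gene FBL, which fell, are shown so that the element can be compared, with the E-box in capitals; MXD4 lies at chr4:2262326-2262359 on the minus strand, LDHA at chr11:18394460-18394497 on the plus strand and FBL at chr19:39846352-39846389 on the minus strand.
MXD4: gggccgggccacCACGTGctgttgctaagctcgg
LDHA: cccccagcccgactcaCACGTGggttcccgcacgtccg
FBL: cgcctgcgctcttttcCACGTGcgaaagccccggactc
Of the 12 network genes with the element, 1 (MXD4) was called higher and 3 lower, and of the 21 biogenesis genes 0 higher and 8 lower. The others were not called or not tested. Among genes of the lysosome, described below, 12 of 43 promoters held the E-box, and 5 of those 12 genes were called higher and 1 lower. The same 6 letters thus stood in promoters of genes called higher, called lower or not called.

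Genes of protein synthesis were largely lower. Cytosolic ribosomal protein genes had 77 tested members, and 2 were called higher and 60 lower (median −0.37). The small subunit genes had a median of −0.47, with 26 of 31 lower and 0 higher, and those of the large subunit a median of −0.34, with 34 of 46 lower. RPS29 had 2310.2, 2212 and 2319.6 CPM with DMSO and 1284, 1323 and 1285 CPM with palbociclib (log2 fold change −0.81, SE 0.06, adjusted p = 5.7e-16). RPS16 (−0.79) and RPS19 (−0.77), also of the small subunit, fell by like amounts, and RPL12 was among the 2 exceptions, 1 of which was no longer called with DESeq2 or without DMSO replicate 1, palbociclib replicate 1 or palbociclib replicate 3 (RPL12 log2 fold change 0.26, SE 0.06, adjusted p = 0.001). Ribosomal protein genes have many processed pseudogenes, which could take or give reads. With the mitochondrially encoded genes taken out of the fit, 60 of them were lower and 2 higher.

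Ribosome biogenesis was touched less evenly. Of 65 tested genes, 2 were called higher and 21 lower (median −0.15); the 2 higher calls became 0 with DESeq2 and without DMSO replicate 1. The snoRNP genes, which guide ribosomal RNA modification, had 5 of 8 lower, whereas the RNA polymerase I genes had 1 of 9 lower, under the background. FBL, the methyltransferase fibrillarin of the nucleolus, had 504, 519 and 511 CPM with DMSO and 254, 252 and 245 CPM with palbociclib (log2 fold change −1.03, SE 0.07, adjusted p = 1.1e-15). UTP4 (−0.88) and NOP56 (−0.71), which take part in pre-ribosomal RNA processing, also fell. Of the 20 cytosolic aminoacyl-tRNA synthetase genes, 6 were lower and 1 higher. AARS1 fell by 0.44 (SE 0.09) and LARS1 rose by 0.35 (SE 0.08) on the log2 scale.

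The constitutive proteasome and the folding machinery fell alongside. Of 31 tested proteasome genes, 1 was called higher and 22 lower (median −0.34), and each of its parts shared in this: 4 of 6 α-subunit genes, 6 of 7 β-subunit genes, 4 of 6 ATPase genes and 8 of 12 other genes of the cap. PSMB6, a catalytic β-subunit, had 240.3, 279 and 267 CPM with DMSO and 144, 157 and 156 CPM with palbociclib (log2 fold change −0.78, SE 0.08, adjusted p = 6.1e-11). PSMD3 of the cap (−0.64) and PSMB7, another catalytic subunit (−0.61), fell too. The cytosolic chaperonin, which folds actin and tubulin, had 7 of 8 subunit genes lower and 0 higher, among them CCT5, which went from 478 ± 12.7 to 291 ± 11.9 CPM (−0.71), TCP1 (−0.77) and CCT6A (−0.55).

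The other cytosolic heat shock chaperones went both ways, with 6 of 18 genes higher and 7 lower, whereas 4 of 7 mitochondrial chaperone genes were lower and 0 higher. The small heat shock protein gene HSPB1 had 2835, 3145 and 2242 CPM with DMSO and 6234, 6486 and 6550.0 CPM with palbociclib (log2 fold change 1.23, SE 0.07, adjusted p = 9.4e-19). Heat shock factors bind inverted repeats of GAA. In the form GAANNTTC this element occurred on either strand in the promoters of 9 of 30 genes of this list and in 6.87% of all promoters. Among the 9 genes, 3 were higher and 3 lower. The elements of the rising HSPB1 (chr7:76302475-76302514, plus strand) and of the falling TCP1 (chr6:159789810-159789849, minus strand) are shown because the 2 genes moved in opposite directions; capitals mark the element.
HSPB1: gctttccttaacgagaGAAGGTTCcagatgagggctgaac
TCP1: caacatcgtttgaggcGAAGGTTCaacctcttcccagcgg
The core had the same letters in both windows, and the flanks differed.

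Mitochondrial and nuclear genes of the respiratory chain moved apart. The mitochondrial genome encodes 13 core subunits of the chain and 2 ribosomal RNAs, and of these 15 genes 14 were called higher and 0 lower, with a median of 0.80. MT-CO2, a subunit of complex IV, had 8617, 7602 and 8019 CPM with DMSO and 14931, 16214 and 15007 CPM with palbociclib (log2 fold change 0.93, SE 0.06, adjusted p = 3.0e-17). MT-ND3 (1.03) and MT-ND1 (0.97) of complex I rose by like amounts. Nuclear copies of mitochondrial sequence could share some of these reads. The nuclear-encoded subunits of the same complexes had 77 tested genes, of which 7 were called higher and 38 lower (median −0.18).

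The fall of the nuclear subunits was spread over complexes I (17 of 35 lower), III (5 of 9), IV (7 of 12) and the ATP synthase (9 of 17). Of the 4 complex II genes 0 were called in either direction, too few genes to set this complex apart. NDUFS6, an accessory subunit of complex I, had 536, 497 and 492 CPM with DMSO and 320.1, 327 and 324 CPM with palbociclib (log2 fold change −0.65, SE 0.07, adjusted p = 1.3e-10). NDUFA12 of the same complex (−0.81) and CYC1, cytochrome c1 of complex III (−0.50), were also lower. COX6C of complex IV was 1 of the 7 genes that rose, from 919.8 ± 62.5 to 1376 ± 63.5 CPM (0.58). The number of higher genes in this list was 4 in place of 7 without DMSO replicate 3 and without palbociclib replicate 3. With the mitochondrially encoded genes taken out of the fit, it was 7, with 37 lower.

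The mitochondrial ribosome, which translates the mitochondrially encoded subunits, fell with the nuclear subunits. Of its 73 tested genes, 2 were called higher and 35 lower (median −0.27), with 25 of 45 genes of the large subunit and 10 of 28 of the small subunit lower. MRPL11 had 134, 129.9 and 131 CPM with DMSO and 66.5, 75.6 and 72.8 CPM with palbociclib (log2 fold change −0.88, SE 0.10, adjusted p = 1.1e-09). MRPS18C (−0.89) and MRPL22 (−0.78) fell by like amounts, and MRPS21 was 1 of the 2 that rose (0.30). Genes of the TCA cycle and of pyruvate entry had 9 of 32 lower and 4 higher. The pyruvate carrier gene MPC1 fell from 42.0 ± 2.51 to 20.3 ± 3.11 CPM (−1.04), and IDH3B (−0.60) and MDH2 (−0.40), enzymes of the cycle, fell by less.

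**Figure D3:**
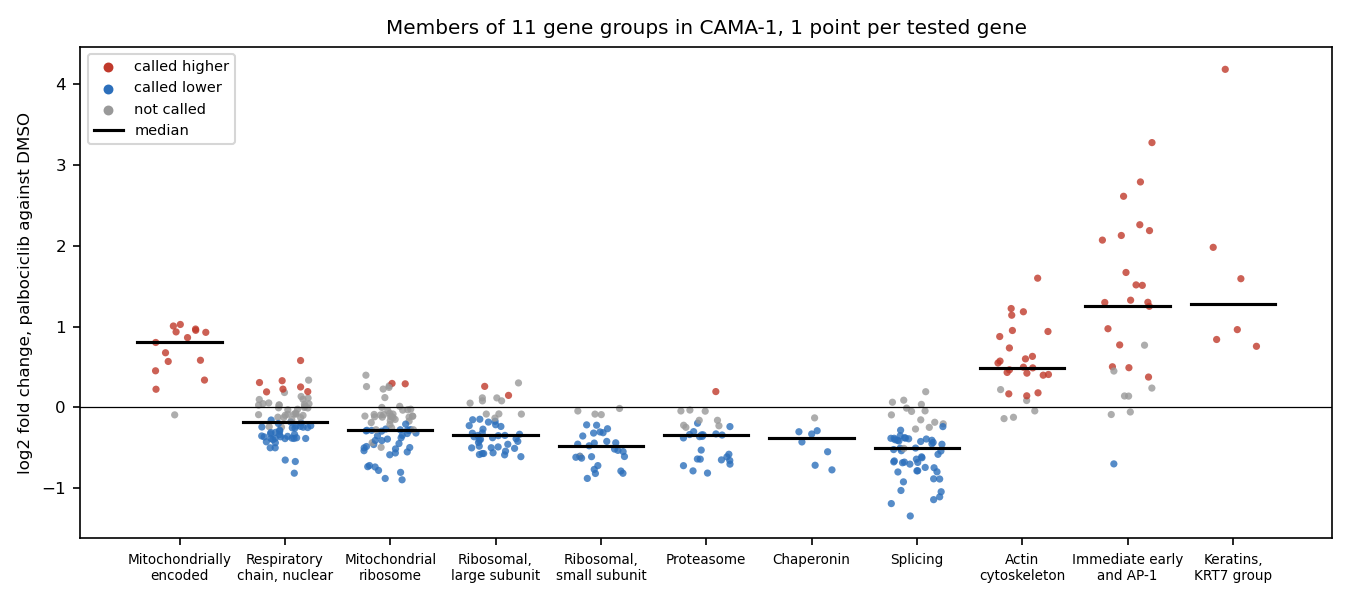
log2 fold change (palbociclib against DMSO) of each tested member of 11 gene groups in CAMA-1, coloured by whether it was called higher, called lower or not called, with a black line at the median. Mitochondrially encoded genes have a median of 0.80 and nuclear-encoded respiratory chain genes one of −0.18; keratins of the group KRT7, KRT8, KRT18, KRT19, KRT80 and KRT81 and immediate early genes have medians of 1.28 and 1.25.

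Sugar and lipid metabolism changed in different directions. Glycolysis genes were mixed, with 8 of 22 lower and 6 higher (3 higher without palbociclib replicate 2). GAPDH had 1197, 1274 and 1321 CPM with DMSO and 805, 818 and 739.7 CPM with palbociclib (log2 fold change −0.68, SE 0.06, adjusted p = 1.9e-12). LDHA, which makes lactate (−0.65), and SLC16A1, which exports it (−1.17), fell too. TXNIP, a brake on glucose uptake, rose from 164 ± 6.73 to 438 ± 9.49 CPM (a log2 difference of 1.42 with SE 0.07 and adjusted p = 4.4e-20).

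Cholesterol synthesis genes, which share control by the sterol-sensing factor SREBP2, rose as a list: of 24 tested, 14 were called higher and 2 lower (median 0.47). All 4 tested genes of regulation and uptake were higher, as were 10 of 20 enzyme genes. SQLE, which makes squalene epoxide, had 67.8, 62.3 and 76.5 CPM with DMSO and 166, 138 and 144 CPM with palbociclib (log2 fold change 1.11, SE 0.10, adjusted p = 2.4e-12). MSMO1 (1.14) and the sterol reductase gene TM7SF2 (1.24), both of later steps, rose as well. ACAT2, an acetoacetyl-CoA thiolase at the start of the pathway, was 1 of the 2 that fell, from 94.6 ± 9.92 to 40.3 ± 5.65 CPM (−1.23). The sterol element TCACNCCAC was present on either strand in 1 of 20 promoters of the list (SREBF2), against 1.15% of all promoters.

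Fatty acid synthesis had 8 of 23 genes higher and 2 lower. FASN, the fatty acid synthase, had 313, 291 and 340.0 CPM with DMSO and 596, 602 and 635 CPM with palbociclib (log2 fold change 0.95, SE 0.07, adjusted p = 2.3e-15). In fatty acid oxidation, the peroxisomal genes separated from the mitochondrial ones: 6 of 8 peroxisomal genes were higher and 0 lower, but 3 of 15 mitochondrial genes were higher and 5 lower. The peroxisome proliferation gene PEX11A rose from 19.7 ± 1.88 to 55.0 ± 8.85 CPM (1.48), with ACAA1 (0.80), which encodes a thiolase of peroxisomal oxidation. CPT1A, which admits fatty acids into mitochondria, fell from 705 ± 45.2 to 546 ± 19.8 CPM (−0.37).

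Genes of amino acid supply under the stress factor ATF4 were lower rather than higher. Of 25 tested, 3 were called higher and 13 lower (median −0.48), including 4 of 7 synthesis genes and 6 of 8 transporters, with 0 higher in either role. The glutamine transporter gene SLC1A5 had 211, 240.5 and 199.9 CPM with DMSO and 123, 125 and 122 CPM with palbociclib (log2 fold change −0.81, SE 0.09, adjusted p = 2.2e-10). MTHFD2 of mitochondrial folate metabolism (−0.79) and PHGDH, the entry enzyme of serine synthesis (−1.86), fell. ATF3, a stress-induced factor, was 1 of 3 genes to rise, from 2.32 ± 0.761 to 10.2 ± 2.37 CPM (2.13).

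Of 30 tested genes of endoplasmic reticulum chaperones and quality control, 9 were called higher and 3 lower; XBP1, a factor of the unfolded protein response that is also abundant in luminal cells, had 675, 685 and 719 CPM with DMSO and 1146, 1082 and 1135 CPM with palbociclib (log2 fold change 0.69, SE 0.06, adjusted p = 1.2e-12). HERPUD1 rose (0.56) and SDF2L1 fell (−0.60). The antioxidant genes under NRF2 were divided, with 8 of 26 higher and 11 lower. NQO1, a quinone reductase and a classic NRF2 target, had 356, 344 and 328 CPM with DMSO and 202, 207 and 217 CPM with palbociclib (log2 fold change −0.71, SE 0.08, adjusted p = 1.8e-10). BLVRB (−0.46) and GCLM (−0.57) also fell.

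The metallothioneins, which bind zinc and copper, had the sharpest fall of the small protein families. All 3 tested genes were lower (median −1.24). MT2A (ENSG00000125148.7, chromosome 16, 56608584 to 56609497) had 398, 396 and 383 CPM with DMSO and 74.0, 78.5 and 64.8 CPM with palbociclib (log2 fold change −2.43, SE 0.08, adjusted p = 2.9e-25). Metallothionein genes are close copies of each other, so reads may have been shared between them.

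Lysosomal and autophagy genes were called higher more often than lower, though most members were not called. Of 57 tested lysosomal genes, 16 were called higher and 3 lower (median 0.23), among them 5 of 11 proteases and 5 of 14 genes of the proton pump. CTSD, the protease cathepsin D, which is also an oestrogen-induced gene, had 181, 168 and 167 CPM with DMSO and 435, 405 and 483 CPM with palbociclib (log2 fold change 1.36, SE 0.08, adjusted p = 2.7e-18). PSAP (0.54) and the β-galactosidase gene GLB1 (0.76), whose enzyme activity is a stain for senescence, rose, and GUSB fell (−0.83). The CLEAR element TCACGTGA, bound by the lysosomal regulator TFEB, stood in 7 of 43 promoters of the list, against 1.04% of all promoters, and 2 of those 7 genes were called higher.

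In autophagy, 11 of 35 tested genes were higher and 3 lower, with the cargo receptors foremost (6 of 9 higher, 0 lower). Outside the receptors, 1 of 5 initiation, 2 of 8 nucleation, 1 of 11 conjugation and 1 of 2 LC3 family genes were higher. The background was 18.4%, and all 3 lower genes were conjugation genes. WIPI1, which acts at the forming autophagosome, had 13.3, 14.0 and 11.6 CPM with DMSO and 57.7, 46.0 and 42.6 CPM with palbociclib (log2 fold change 1.93, SE 0.17, adjusted p = 9.4e-13). TP53INP2 (1.97) and the receptor gene OPTN (1.35) also rose. Hypoxia targets had 8 of 20 tested genes higher and 2 lower, in both directions within the stanniocalcins: STC2 rose from 36.1 ± 5.03 to 70.2 ± 2.23 CPM (0.95) while STC1 fell, as given above. CA12, a carbonic anhydrase gene that also responds to oestrogen, rose by 0.81 (SE 0.07) on the log2 scale.

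The epithelial cytoskeleton was among the strongest rises. The simple keratin genes KRT7, KRT8, KRT18 and KRT19, grouped with KRT80 and the hair keratin gene KRT81, were all 6 higher (median 1.28). Of 22 listed keratin and filament genes 10 were tested, and 8 of these were higher and 1 lower. KRT7 had 224, 238 and 230.1 CPM with DMSO and 708, 695 and 682 CPM with palbociclib (log2 fold change 1.59, SE 0.07, adjusted p = 3.5e-23). KRT80 rose from 32.9 ± 6.06 to 129 ± 5.06 CPM (1.98), and KRT10, a keratin of stratified epithelium, was the gene that fell (−0.71). Among the genes listed in the group of KRT7, 4 are also in the list of oestrogen response genes.

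Actin-linked genes rose while tubulins divided. Of 27 tested genes of actin, myosin and their partners, 22 were called higher and 0 lower (median 0.49); of 13 tubulin and microtubule genes, 4 were called higher and 6 lower. TMSB10, which binds monomeric actin, had 1126, 1181 and 981 CPM with DMSO and 2432, 2457 and 2573 CPM with palbociclib (log2 fold change 1.18, SE 0.06, adjusted p = 5.8e-20). The myosin light chain gene MYL12A rose from 156 ± 14.1 to 343 ± 11.5 CPM (1.14). STMN1, which destabilizes microtubules and belongs to the cell cycle list, fell from 453 ± 10.4 to 169 ± 7.91 CPM (−1.42), in contrast to TUBA1A above.

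Genes of cell junctions and of the matrix rose as well. Junction genes had 35 tested members, of which 20 were called higher and 2 lower (median 0.46), with 4 of 6 claudins, 7 of 11 other tight junction genes and 6 of 10 desmosome genes higher. CLDN4, a claudin of tight junctions, had 93.0, 92.8 and 103 CPM with DMSO and 199, 191 and 195 CPM with palbociclib (log2 fold change 1.01, SE 0.09, adjusted p = 5.3e-13). NECTIN4 (1.09), an adhesion receptor, and the polarity gene PARD6B (0.84) rose. Of 56 listed genes of matrix, integrins and matrix proteases, 28 were tested, and 17 of these were called higher and 2 lower (median 0.75).

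The cell surface proteoglycan gene SDC1 had 192, 178 and 201 CPM with DMSO and 497, 479 and 537 CPM with palbociclib (log2 fold change 1.40, SE 0.07, adjusted p = 2.1e-19). SDC4 (0.80) and the integrin gene ITGB5 (0.70) rose by smaller amounts. MGP, which encodes the matrix Gla protein, was 1 of the 2 that fell (1 without palbociclib replicate 1), from 742 ± 17.8 to 618 ± 18.6 CPM (−0.26). Of 11 tested S100 genes, 7 were higher and 1 lower, with S100A10, a partner of annexin A2, rising from 98.1 ± 14.8 to 269.6 ± 9.57 CPM (1.47). MUCL1, a small mucin-like gene of the breast, rose from 71.1 ± 6.16 to 251 ± 11.9 CPM (1.83).

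Immediate early genes, which respond to growth signals within minutes and include the AP-1 factors, were higher after 5 days of drug. Of 27 tested, 19 were called higher and 1 lower (median 1.25), with 6 of 7 AP-1 genes, 9 of 12 other factors and 4 of 8 feedback regulators higher. EGR1 (ENSG00000120738.8, chromosome 5, 138465479 to 138469303), a zinc finger factor, had 80.1, 69.7 and 57.2 CPM with DMSO and 335, 364 and 281 CPM with palbociclib (log2 fold change 2.26, SE 0.13, adjusted p = 2.8e-18). IER3 went from 703 ± 29.6 to 2238 ± 36.5 CPM (a log2 difference of 1.67 with SE 0.06 and adjusted p = 4.6e-25) and ZFP36L1, which binds AU-rich messenger RNAs, from 172 ± 13.4 to 429.6 ± 43.8 CPM (1.33). IER5 was the gene that fell (−0.70).

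The element TGACGTCA, bound by cyclic AMP-responsive factors, was found in 2 of 25 promoters of this list, JUND and DUSP1, both called higher, and in 1.98% of all promoters. Most members of the list thus had no such letters within this window.

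Secreted and NF-κB genes changed in the same direction. Of 57 listed genes only 20 had enough counts to be tested, and 16 of these were higher and 0 lower; 4 had a group at or under the counting floor, so their fitted values are no guide to size. All 6 tested genes of the NF-κB pathway itself were higher. The subunit gene RELB had 2.99, 3.85 and 5.22 CPM with DMSO and 32.7, 30.7 and 35 CPM with palbociclib (log2 fold change 2.97, SE 0.23, adjusted p = 2.2e-14). NFKBIA, the inhibitor that NF-κB induces, rose from 230.4 ± 11.3 to 455 ± 38.5 CPM (0.98) and the secreted chaperone gene CLU from 618 ± 38.3 to 1600.4 ± 29.2 CPM (a log2 difference of 1.37 with SE 0.06 and adjusted p = 1.8e-22). A list in which genes pass the filter only through the treated group must hold more rises than falls, and 37 of the 57 genes did not pass it. The same limit may apply to the matrix, keratin and interferon-stimulated lists, of which 28 of 56, 10 of 22 and 29 of 53 genes were tested.

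Targets of YAP and TGF-β signalling had 8 of 25 tested genes higher and 3 lower. The YAP targets had 2 of 11 higher, near the 18.4% over all tested genes, and 1 lower. The TGF-β genes had 6 of 14 higher and 2 lower. SKIL, a feedback inhibitor of TGF-β signalling, had 21.3, 17.5 and 23.7 CPM with DMSO and 67.4, 55.9 and 72.4 CPM with palbociclib (log2 fold change 1.62, SE 0.14, adjusted p = 1.9e-12). CCN1, a YAP target (1.31), and ID3 (0.94) rose, but ID2, of the same family as ID3, fell from 238 ± 10.0 to 108 ± 3.96 CPM (−1.13). Notch and Wnt genes had 6 of 24 higher and 3 lower (1 lower with DESeq2, without DMSO replicate 1 or 3, and without palbociclib replicate 1); HES1, a Notch target, rose from 291 ± 35.5 to 559 ± 60.3 CPM (0.95) and NRARP, another, fell (−0.98).

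Growth factor receptor genes and their partners rose in 16 of 29 cases and fell in 4 (median 0.65), including 5 of 7 genes of the ERBB family and its ligands. ERBB2 had 80.4, 72.1 and 73.8 CPM with DMSO and 174, 175 and 158 CPM with palbociclib (log2 fold change 1.17, SE 0.09, adjusted p = 2.6e-14). The collagen receptor gene DDR1 (0.85) and IGFBP5, an insulin-like growth factor binding protein (0.66), rose, and the ephrin receptor gene EPHB3 fell from 160.4 ± 10.7 to 80.8 ± 4.59 CPM (−0.99).

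Interferon-stimulated genes were low in these cells and rose in part. Of 53 listed, 29 were tested, and 14 were called higher and 1 lower (median 0.68). IRF1, a transcription factor of the pathway, had 11.0, 6.65 and 11.2 CPM with DMSO and 29.8, 28.1 and 27.0 CPM with palbociclib (log2 fold change 1.54, SE 0.20, adjusted p = 3.4e-08). DTX3L (1.26) and TRIM14 (1.09) rose, and the oligoadenylate synthetase gene OAS3 was the 1 gene called lower (−0.91).

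The core of the interferon-stimulated response element, searched as 2 copies of GAAA with 2 bases between them on either strand, stood in 28 of 44 promoters of this list, against 3.65% of all promoters. Of the 28 genes, 8 were called higher and 1 lower, and the others were not called or not tested. The windows of 2 rising genes, DTX3L (chr3:122564316-122564357, plus strand) and TRIM14 (chr9:98119223-98119264, minus strand), and of the falling OAS3 (chr12:112938446-112938487, plus strand) are given for comparison, with the element in capitals; in TRIM14 it lies on the opposite strand and is read as its reverse complement.
DTX3L: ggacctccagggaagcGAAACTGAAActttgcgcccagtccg
TRIM14: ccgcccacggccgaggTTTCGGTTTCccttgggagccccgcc
OAS3: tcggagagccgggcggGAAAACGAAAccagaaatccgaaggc
The elements were centred at positions −1, −21 and −7 from the RefSeq start, and their genes were not called in the same direction.

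Antigen presentation by MHC class I had 6 of 14 tested genes higher and 2 lower. TAPBP, which loads peptides, had 131, 132 and 137 CPM with DMSO and 242, 245 and 249.9 CPM with palbociclib (log2 fold change 0.88, SE 0.08, adjusted p = 1.4e-12). HLA-B rose from 124 ± 7.79 to 196 ± 13.0 CPM (0.65); HLA genes are similar and polymorphic, so reads may have been assigned between them. The 2 lower calls became 0 without palbociclib replicate 1.

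Targets of p53 had 9 of 26 tested genes higher and 4 lower (2 lower without palbociclib replicate 1 or with DESeq2). The CDK inhibitor gene CDKN1A had 8.97, 8.40 and 13.1 CPM with DMSO and 28.8, 37.6 and 31.2 CPM with palbociclib (log2 fold change 1.64, SE 0.19, adjusted p = 2.7e-09). TP53INP1 rose (1.96) and the DNA repair gene DDB2 fell (−1.89). In the BCL2 family, 7 of 24 genes were higher and 2 lower (1 lower without palbociclib replicate 1). The survival factor gene MCL1 rose from 177 ± 13.8 to 301 ± 8.58 CPM (0.77) and BBC3, which encodes the death inducer PUMA, from 64.8 ± 12.6 to 101 ± 5.20 CPM (0.62), while BCL2L11, which encodes BIM, fell from 17.5 ± 1.91 to 6.27 ± 0.626 CPM (−1.46).

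Factors of luminal identity and lineage were divided, with 13 of 36 tested genes higher and 12 lower. SOX4 had 783, 753 and 807 CPM with DMSO and 2377, 2512 and 2239.8 CPM with palbociclib (log2 fold change 1.60, SE 0.06, adjusted p = 5.7e-25). CRABP2, which carries retinoic acid, rose from 52.6 ± 4.24 to 199 ± 7.26 CPM (1.93) and ZNF703 from 183 ± 11.8 to 357 ± 14.6 CPM (0.96). The homeobox gene IRX3 fell from 1161 ± 31.5 to 734 ± 10.3 CPM (−0.66). In bulk RNA such a difference cannot be told apart from a change in how many cells make a transcript, or from a change in RNA content per cell.

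Abemaciclib is a related CDK4/6 inhibitor, and at the same dose and time it was compared with palbociclib directly, in the same fit. The inhibitors differed for 257 of 11053 genes (2.33%), with 169 higher and 88 lower with palbociclib. These counts moved with single libraries: they were 104 and 50 without abemaciclib replicate 3 and 107 and 44 without palbociclib replicate 1. The number lower was 55 without palbociclib replicate 2 and 158 without DMSO replicate 3. Of the 221 cell cycle genes 50 were higher with palbociclib and 0 lower. Outside the cell cycle and oestrogen response genes, the list with the largest share of differences was that of small secreted and binding proteins, with 11 of 33 genes higher with palbociclib and 1 lower. GDF15 was higher with palbociclib by 1.61 (SE 0.11, adjusted p = 3.8e-14) on the log2 scale. MT2A stood higher by 1.26 (SE 0.11, adjusted p = 4.5e-11), its fall being smaller with palbociclib, and CRABP2 by 1.08 (SE 0.09, adjusted p = 3.2e-11).

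In cholesterol synthesis, 7 of 24 genes were higher with palbociclib and 0 lower, with MSMO1 at 0.50 (SE 0.12, adjusted p = 0.01), and the fatty acid synthase gene FASN stood at 0.49 (SE 0.07, adjusted p = 2.1e-06). On the same scale, EGR1 (0.75), IER3 (0.55), HES1 (0.59), NQO1 (0.67) and SLC1A5 (0.50) were also higher with palbociclib. Lower with palbociclib were STC1, at −1.57 (SE 0.23, adjusted p = 1.3e-05), CLU (−0.43) and KRT80 (−0.42). MKI67, by comparison, differed by 0.87 (SE 0.11, adjusted p = 7.4e-07).

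Several of the larger groups had few or no genes that differed between the inhibitors, near the 2.33% over all tested genes. Of 61 splicing factor genes 0 were higher and 1 lower with palbociclib, of 77 ribosomal protein genes 1 higher and 0 lower, of 31 proteasome genes 0 in either direction, and of 77 nuclear-encoded respiratory chain genes 0 in either direction. The difference for HNRNPA2B1 was 0.00 (95% interval −0.14 to 0.14), for RPS16 0.01 (95% interval −0.10 to 0.13), for HSPB1 0.01 (95% interval −0.12 to 0.15) and for SOX4 −0.10 (95% interval −0.22 to 0.01). Such intervals bound the difference and do not show that the inhibitors act alike. Both drug groups are set against the same DMSO libraries, so their folds over DMSO are not independent.

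**Figure D4:**
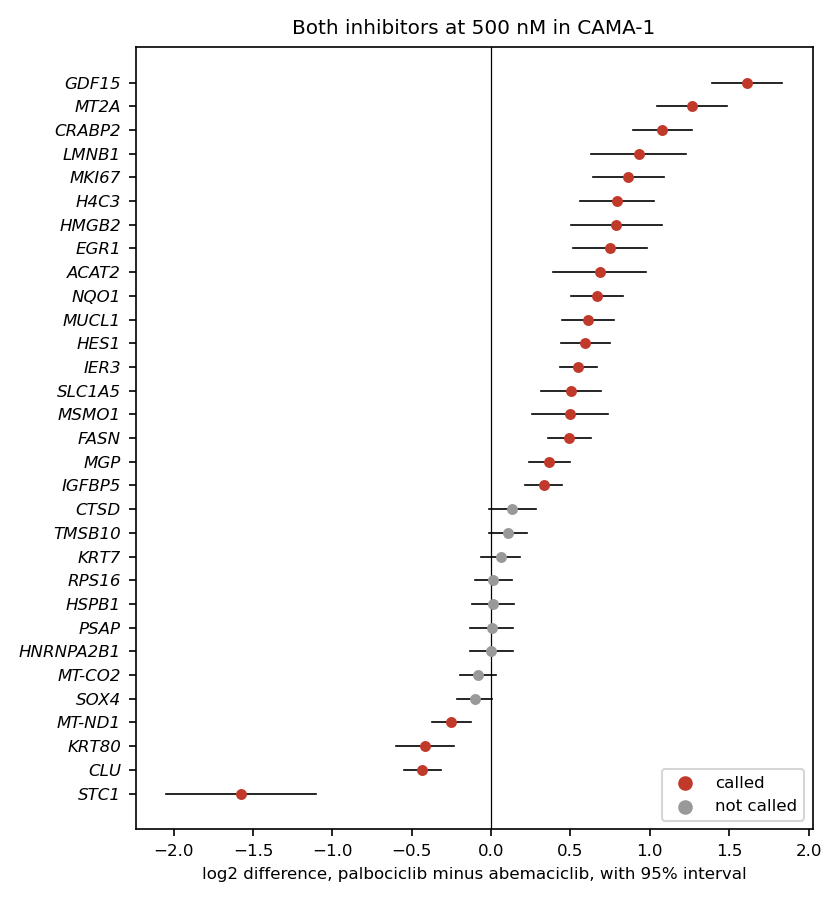
log2 difference in expression between palbociclib and abemaciclib, both at 500 nM for 5 days in CAMA-1, for 31 genes, with 95% intervals; red points were called at an adjusted p under 0.05 and grey points were not. GDF15 and MT2A stand highest with palbociclib and STC1 lowest, and the intervals of the grey genes reach 0.

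The response to palbociclib was then compared with that of ZR-75-1 by an interaction test in one fit over all 18 libraries. Of 11987 genes, 2438 (20.3%) differed in response, 1201 with the higher log2 fold change in ZR-75-1 and 1237 with the lower. Immediate early genes had a median of −0.60 in ZR-75-1, and 20 of 27 had a lower response there than in CAMA-1 and 0 a higher one. EGR1 fell in ZR-75-1 (−0.97, adjusted p = 9.3e-05) where it rose in CAMA-1, a difference of −3.26 (adjusted p = 5.8e-15).

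The mitochondrially encoded genes had a median of −0.12 in ZR-75-1, and 14 of 15 differed, all with the lower value there. Ribosomal protein genes had a median of 0.00 in ZR-75-1, and 48 of 77 differed with the higher value there and 1 with the lower. Nuclear-encoded respiratory chain genes likewise differed in 32 of 77 cases with the higher value in ZR-75-1 and in 2 with the lower. All 6 keratins grouped with KRT7, 16 of 27 actin genes and 13 of 24 cholesterol genes had the lower response in ZR-75-1. Splicing factors also fell there (median −0.29), and 18 of 61 had the higher log2 fold change in ZR-75-1 against 2 with the lower.

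GDF15 moved in opposite directions in the lines, with −1.61 in ZR-75-1 (adjusted p = 2.8e-17) and a difference of −6.26. KRT81 (−1.98), CDKN1A (−1.04), S100A10 (−0.95) and CLDN4 (−0.47) were also called lower in ZR-75-1, and MGP (3.47), IRX3 (1.02) and MPC1 (0.72) higher there. Of 57 lysosomal genes, 32 were called higher in ZR-75-1 and 16 in CAMA-1, and the genes called in both lines were not counted. CTSD, called higher in CAMA-1, rose by 1.68 in ZR-75-1. The share of all genes called in ZR-75-1 was not counted, so the 32 genes called there have no background beside them. The ZR-75-1 values come from the fit over both lines, in which folds of CAMA-1 differ slightly from those given above.

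**Figure D5:**
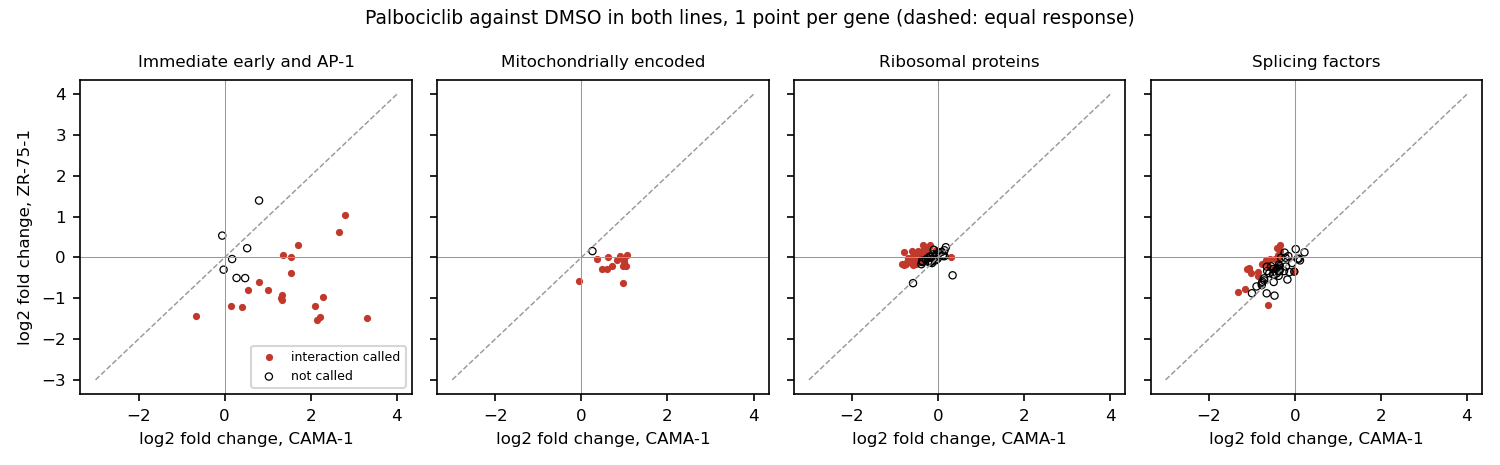
log2 fold change with palbociclib against DMSO in CAMA-1 (horizontal) and ZR-75-1 (vertical) for the members of 4 gene lists, from the fit over 18 libraries; filled red points differed between the lines by the interaction test, open points did not, and the dashed line marks equal responses. Most immediate early genes lie below the line, mitochondrially encoded genes lie to its right near 0 on the vertical axis, most ribosomal protein genes lie above it, and splicing factors follow it more closely.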

How the data were processed

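RNA from 18 cultures of CAMA-1 and ZR-75-1 was profiled by 3′ mRNA sequencing primed on poly(A) tails. According to the methods of the study and the submitters' processing notes, the authors trimmed the reads, aligned them to hg38 with STAR 2.7.5b and assigned them to genes with featureCounts 2.0.1 and a GENCODE annotation. The deposited values are unnormalised read counts per gene, 1 column per library. Labels and methods differ on the version of the kit, so the strand setting of the counting was not settled here, and reads of a gene and an antisense partner may not be told apart.

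The 9 CAMA-1 libraries were fitted together (edgeR 4.0.16 in R 4.3.3; TMM scaling, filterByExpr, quasi-likelihood test, 3 groups), which left 11053 of 60656 gene rows holding 99.6% of the counts. The methods of the study used DESeq2, and this served as an alternative (version 1.42.0). P-values were adjusted by Benjamini-Hochberg over all tested genes, and a gene was called at an adjusted p under 0.05. CPM values use the TMM library sizes. The contrast of the inhibitors came from the same fit, with intervals at the 95% level. The interaction of line and drug came from a fit of 18 libraries in 6 groups (11987 genes), which pools the spread of both lines. A fold against a group with at most 3 counts in every library is given as a bound against 3 counts per library.

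Named genes followed a rule: 4 anchors, the 10 largest called rises and falls with a symbol, at least 10 counts on average, no overlap of groups and no membership of the cell cycle or oestrogen lists, and in each other list with at least 3 calls up to 3 called genes of smallest p in the main direction and 1 in the other. A few genes the rule names are not reported here. Lists, rule and comparison were chosen with earlier results of these data known, so list counts are descriptions and no set test was run. Symbols came from a name table that matched 60445 IDs, coordinates from GENCODE v44, and promoters (27305, GRCh38.p14) from RefSeq. Genes with near-identical copies, among them tubulins, keratins, histones, HLA genes, metallothioneins, GAPDH and ribosomal protein genes, may share reads. Alternatives were other scalings, count filters, DESeq2, the 6 libraries alone, removal of mitochondrially encoded genes and a replicate block. Single CAMA-1 libraries were also left out in turn, but no ZR-75-1 library was. The main fit was also run on simulated counts with known fold changes, which checks the code and says little about these data.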

Additional observations from a re-analysis of the deposited data

Results flagged for a closer look

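The response to palbociclib differed between ZR-75-1 and CAMA-1, by the interaction test of the edgeR fit over 18 libraries at an adjusted p under 0.05, for 113 of the 149 genes given values above, against 20.3% of all tested genes. The genes had been named for their change in CAMA-1. The log2 fold change was lower in ZR-75-1 for 59 and higher for 54, and 22 were called in both lines in opposite directions. The largest adjusted p was 0.042 and the smallest absolute difference 0.28. Each value is the response in ZR-75-1 less the response in CAMA-1, on the log2 scale. Groups of 3 libraries are too small for an outlier test.

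Among the genes of largest change and the anchors, the response was lower in ZR-75-1 for GDF15 (−6.26), KRT81 (−6.19), TUBA1A (−3.80), ZNF462 (−3.06) and ANKRD22 (−3.05). It was higher there for STC1 (3.61), NMU (2.45), NRGN (1.83), NRM (1.21), MKI67 (1.02) and H4C3 (0.73). NMU had at most 3 counts per library with palbociclib in CAMA-1, so its value depends on the prior count of the fit.

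Immediate early, NF-κB and signalling genes with a lower response in ZR-75-1 were EGR1 (−3.26), RELB (−2.97), SKIL (−2.32), IER3 (−1.40), ERBB2 (−1.35), ZFP36L1 (−1.30), HES1 (−0.94), NFKBIA (−0.92), IER5 (−0.77), ID3 (−0.72), CCN1 (−0.65), ID2 (−0.59) and DDR1 (−0.34). Higher there were CLU (0.92), EPHB3 (0.69) and IGFBP5 (0.62). Genes of keratins, cytoskeleton, junctions and matrix with a lower response in ZR-75-1 were KRT80 (−2.99), SDC1 (−1.86), KRT7 (−1.57), CLDN4 (−1.52), MYL12A (−1.33), TMSB10 (−1.23), ITGB5 (−0.75), NECTIN4 (−0.74) and SDC4 (−0.71). Values were above 0 for MGP (3.70), KRT10 (0.58) and STMN1 (0.42). Small protein families and lineage genes with a lower response in ZR-75-1 were S100A10 (−2.45), SOX4 (−1.85) and ZNF703 (−0.57). A higher response in ZR-75-1 was found for MT2A (1.67) and IRX3 (1.65). Genes of mitochondria with a lower response in ZR-75-1 were MT-CO2 (−1.17), MT-ND1 (−1.04), MT-ND3 (−1.0) and COX6C (−0.54). The response was higher there for MPC1 (1.72), IDH3B (0.65), NDUFA12 (0.63), CYC1 (0.50), MRPL11 (0.49) and NDUFS6 (0.36).

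Genes of sugar and lipid metabolism with a lower response in ZR-75-1 were STC2 (−1.62), PEX11A (−1.55), TXNIP (−1.48), MSMO1 (−1.15), SQLE (−0.97), FASN (−0.71), TM7SF2 (−0.58) and CPT1A (−0.35). Above 0 were CA12 (1.34), SLC16A1 (1.18), GAPDH (0.77) and LDHA (0.40). Stress, amino acid, lysosome and autophagy genes with a lower response in ZR-75-1 were ATF3 (−3.69), HERPUD1 (−0.99), LARS1 (−0.86), WIPI1 (−0.74), XBP1 (−0.59) and AARS1 (−0.37). The other direction held for GUSB (1.37), SDF2L1 (1.10), NQO1 (1.01), PHGDH (0.98), GCLM (0.71), SLC1A5 (0.67), BLVRB (0.51) and CTSD (0.29). Genes of ribosomes, proteasome and chaperones with a lower response in ZR-75-1 were HSPB1 (−1.20) and RPL12 (−0.28). Responses were higher in ZR-75-1 for UTP4 (1.06), TCP1 (0.72), PSMD3 (0.69), RPS16 (0.62), CCT5 (0.60), RPS29 (0.59), RPS19 (0.58), PSMB6 (0.48), FBL (0.45), CCT6A (0.42) and PSMB7 (0.34). Among genes of RNA, nucleus, chromatin and the MYC network the response was lower in ZR-75-1 for KDM5B (−0.54). A higher value in that line was found for TMPO (0.88), SNRPB (0.84), LMNB1 (0.82), RANBP1 (0.81), H1-10 (0.65), DNMT1 (0.61), HMGB2 (0.55), H2AZ2 (0.47), HNRNPH1 (0.47) and HNRNPA2B1 (0.38). Targets of p53 and BCL2, interferon and antigen presentation genes with a lower response in ZR-75-1 were CDKN1A (−2.70), IRF1 (−1.78), DTX3L (−1.61), TP53INP1 (−1.27), BBC3 (−1.25), MCL1 (−0.99), HLA-B (−0.88) and TAPBP (−0.37). Above 0 was BCL2L11 (1.48).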

How the results depend on the processing

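No named gene changed direction under any alternative run. The balance of 1 list did: the secretory pathway median of 0.0013 became −0.0013 with the stricter count filter, −0.0040 without palbociclib replicate 3 and −0.0016 without the mitochondrially encoded genes, and its 11 genes higher and 8 lower became 10 and 11 without DMSO replicate 3. For palbociclib against DMSO the number of genes called higher was 1755 to 2078 and lower 1757 to 2072 over all settings, with DESeq2 at 1755 and 1757, and the median of all genes stayed between −0.01 and 0.01. Against abemaciclib, leaving out single libraries gave 104 to 221 genes higher and 44 to 158 lower, and DESeq2 135 and 65. The difference between lines gave 1104 to 1217 genes higher and 960 to 1237 lower in ZR-75-1, in fits that always kept every ZR-75-1 library. The small opposing counts of several lists moved. With DESeq2, the p53 targets called lower were 2, ribosomal protein genes called higher 1, biogenesis and proteasome genes called higher 0, and Notch and Wnt genes called lower 1. With no count filter, biogenesis genes called higher were 1 and Notch and Wnt genes called lower 1. Over the fits without 1 library, members called lower were 2 to 4 for p53 targets, 0 to 2 for MHC class I, 1 to 3 for Notch and Wnt, 1 to 3 each for junctions, matrix and the BCL2 family, and 7 to 11 for the MYC network. Members called higher were 4 to 6 for the nuclear respiratory chain, 3 to 5 for glycolysis, 1 to 2 for ribosomal proteins, 0 to 2 for biogenesis, 0 to 1 for the proteasome and 0 to 1 for the nuclear pore and lamina. The cause was not tested. The largest shift of a list median was 0.37, for keratins under the stricter count filter, which tests fewer genes.

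Libraries that share a replicate number did not deviate together (r of −0.01, −0.02 and −0.08 across genes, against −0.03 to 0.05 for other pairs), so the numbers were not taken to pair them. With the replicate block, 1979 genes were called higher and 2015 lower against DMSO, 155 and 78 against abemaciclib, and 1156 and 1198 in the difference between lines; 1 ribosomal protein gene and 1 biogenesis gene were then called higher. At 2308442 to 4146549 counts per CAMA-1 library, 3 counts stand for 0.723 to 1.30 CPM, and most cytokine and chemokine genes and CDK6 were too low to be tested.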

Other observations

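The secretory pathway, which moves membrane and secreted proteins from the endoplasmic reticulum to the cell surface, was not among the groups described above. In CAMA-1, 11 of its 63 tested genes were called higher with palbociclib and 8 lower, with a median of 0.00, a value that changes sign in 3 of the 14 alternative fits. In ZR-75-1, 28 of these genes were called higher and 2 lower (median 0.27). Counts of genes called in ZR-75-1 have no background here, as the share over all genes was not counted. The interaction test found 16 with a higher response in ZR-75-1 and 2 with a lower one. The glycosylation genes were lower in 5 of 13 cases in CAMA-1 and higher in 1, and the genes of translocation into the endoplasmic reticulum were higher in 4 of 17 and lower in 0. Genes of endoplasmic reticulum chaperones and quality control had 15 of 30 members called higher in ZR-75-1 and 1 lower, and 11 had a higher response there than in CAMA-1 against 3 with a lower one.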
